A study of Mus musculus with 8 samples.

Results

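Genes of the lysosome were followed in mouse calf muscle after 5 weeks of dietary ursolic acid, a pentacyclic triterpenoid of fruit peel. The set was chosen by name: 34 symbols of lysosomal hydrolases, their cofactors and membrane proteins, together with every symbol that starts with Atp6v, the stem of the vacuolar proton pump (V-ATPase). A gene entered when a row of the deposited table carried it as its only symbol, and where several did, the brightest was used. By this rule 50 of 14860 measured genes were members: 25 hydrolases and cofactors, 7 membrane proteins and 18 V-ATPase subunits. Cd63 was not analysed here, and Limp2 is another name of Scarb2, which is counted once. A further 1 Atp6v symbol stood only in rows of several symbols and was left out, so the 18 subunits are not the whole pump.

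The muscle was gastrocnemius of male C57BL/6 mice aged 12 weeks. One group of 4 samples came from mice fed standard chow with 0.27% ursolic acid, and the other 4 samples came from mice on the same chow without it. Each sample was RNA pooled from 2 mice, so the spread between samples is that of pools and not of single animals. RNA was read on 1-colour arrays as log2 expression values. Group membership was taken from the titles, which the treatment field repeats, but the free-text description contradicts them for 4 of the 8 samples (ursolic acid samples 1 and 3, control samples 2 and 4), so counts are also given for ursolic acid samples 2 and 4 and control samples 1 and 3, whose labels are concordant. Control sample 1 had a mean Spearman correlation of 0.977 with the other arrays, where the others had 0.983 to 0.986.

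Lysosomes are acidic compartments in which proteins, glycogen, sphingolipids and glycosaminoglycans are broken down. The V-ATPase, a membrane-bound V0 sector that carries protons and a cytosolic V1 sector that burns ATP, keeps them acidic, and heavily glycosylated membrane proteins line them. In muscle the lysosome is best known through Pompe disease, in which loss of acid alpha-glucosidase (Gaa) lets glycogen build up, and Danon disease, in which Lamp2 is lost. Macrophages are rich in lysosomes, so RNA of a whole muscle holds lysosomal transcripts of fibres and of resident leukocytes together.

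Most hydrolases and membrane proteins had somewhat higher values with ursolic acid, while V-ATPase subunits lay evenly on both sides of 0. Of the 25 hydrolases and cofactors 20 were higher and 5 lower (median log2 difference 0.11), and of the 7 membrane proteins 6 were higher, with a median of 0.12. The 18 V-ATPase subunits split into 9 higher and 9 lower, with a median of 0.01. Over all 14860 genes 45.6% were higher and the median was −0.01. The largest differences among members belonged to Lgmn and Grn, at 1.26-fold and 1.23-fold of control.

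No member passed an adjusted p of 0.05 over all rows by limma, and none of the 14860 genes did (0%). At an adjusted p of 0.10 the count of members was again 0, where 0.121% of genes passed. At an unadjusted p of 0.05, 4 of 50 members (8%) were higher, against 4.13% of all genes, and 0 were lower, against 2.98% of all genes. Counting both directions, 7.11% of all genes met that rule. The 4 were Lgmn, Grn, Lamp2 and Smpd1. All ursolic acid samples lay above all control samples in 3 members, Lgmn, Grn and Tpp1, or 6% against 2.75% of all genes. In 0 members did they all lie below, against 1.86% of all genes, and 4.6% of all genes had groups that did not overlap in either direction. Members were also brighter than most genes, with 36 of 50 above the median level. Among the 7649 genes above that level 53.7% were higher, 5.91% were higher at an unadjusted p of 0.05, and 4.25% had ursolic acid samples all above control. The count of 4 ranged from 2 to 8 when single samples were left out, being 2 without ursolic acid sample 4, control sample 2 or control sample 3 and 8 without control sample 4. In the samples with concordant labels 6 members were higher at that p (Lgmn, Grn, Lamp2, Hexa, Asah1 and Atp6v1h) and 1, Galns, was lower, where 4.84% of all genes were higher and 5.94% lower by the same fit. When all 8 samples were instead grouped by the free-text description, 2 members were higher, against 5.15% of all genes, and 2 lower, against 7.48%, and none of the 4 named above was among them. Under that grouping the difference, described as treated minus untreated, was −0.02 for Lgmn, 0.05 for Grn, 0.17 for Lamp2 and 0.02 for Smpd1. The limma adjusted p-values of these 4 were 0.967, 0.872, 0.466 and 0.943 in that order.

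**Figure D1:**
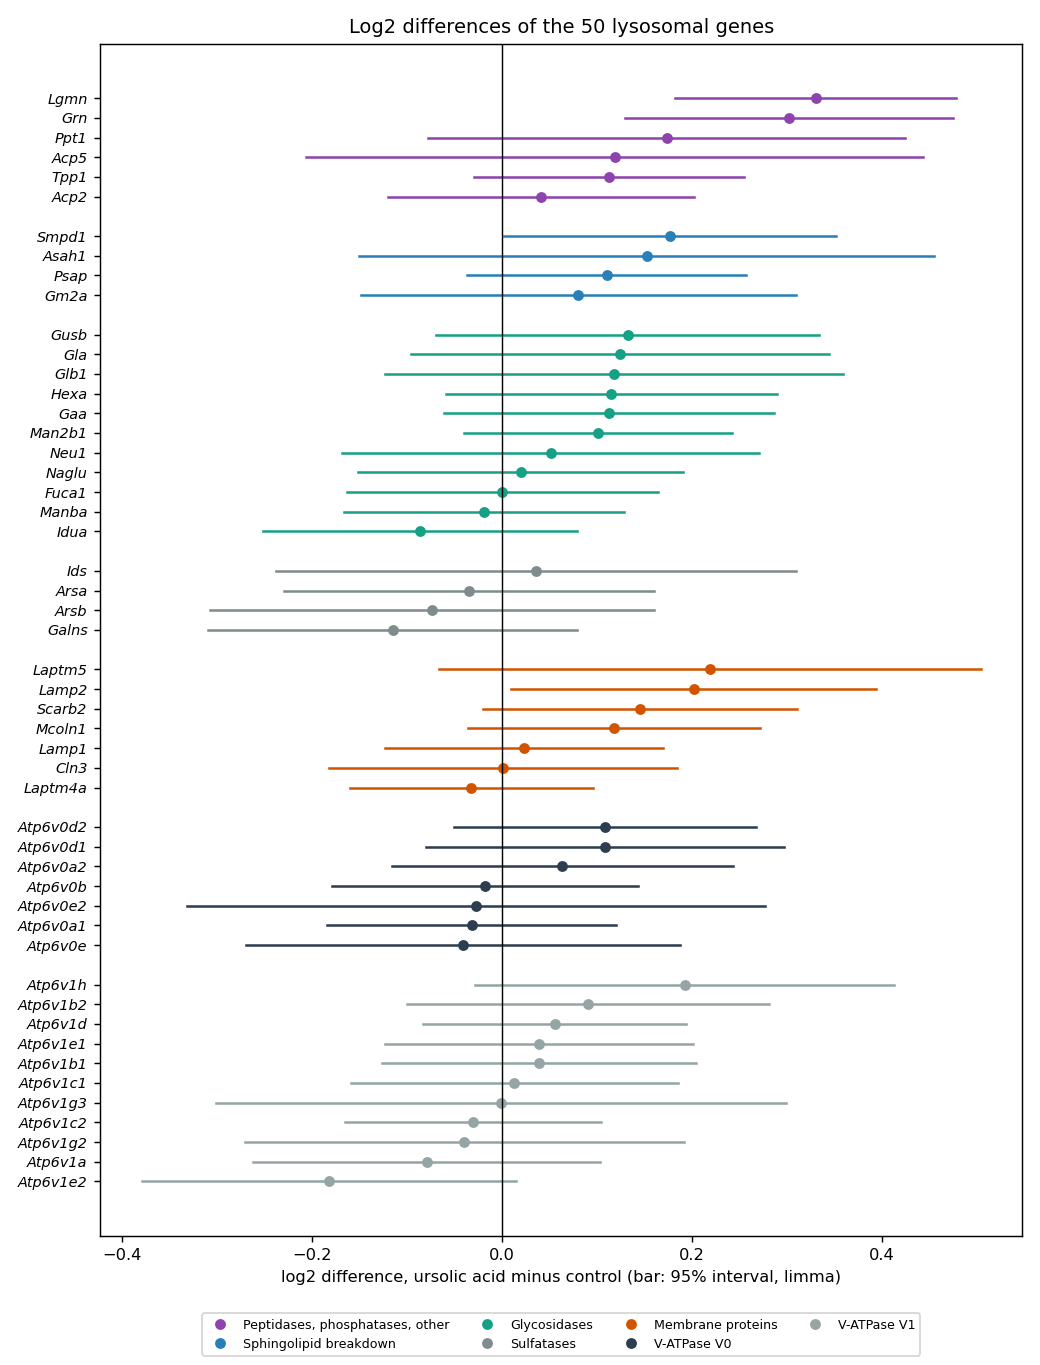
Log2 difference of each of the 50 lysosomal genes, ursolic acid minus control, on the horizontal axis, with its 95% interval from limma as a bar and colours for the roles. Only the intervals of Lgmn, Grn, Lamp2 and Smpd1 lie wholly above 0, and the V-ATPase subunits spread from −0.18 to 0.19.

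The 6 peptidases, phosphatases and related soluble proteins were all higher, and their median log2 difference was 0.15. Lgmn, the asparaginyl endopeptidase legumain that also trims cathepsins to their mature forms, had log2 values of 6.51, 6.50, 6.59 and 6.67 in ursolic acid samples 1 to 4, against 6.28, 6.15, 6.26 and 6.25 in control samples 1 to 4. The groups were apart by more than the spread inside either. The difference was 0.33 ± 0.07 (SE), with a limma p of 0.000549 and an adjusted p of 0.188. Grn, the progranulin precursor that is carried to lysosomes and cut into granulins, had values of 6.90, 6.81, 6.70 and 7.02 in ursolic acid samples, against 6.60, 6.59, 6.52 and 6.51 in control samples. Here too every ursolic acid sample was above every control sample, with sample 3 the lowest of its group. The difference was 0.30 ± 0.08 (SE), with a limma p of 0.00295 and an adjusted p of 0.322. Neither gene passed over all rows. Both kept an unadjusted p below 0.05 in each of the 18 alternative settings that kept the title groups. In these limma fits p ran from 0.000292 to 0.0289 for Lgmn and from 0.00098 to 0.0237 for Grn. The settings refit the same arrays, or some of them, and so add no independent support.

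Tpp1, a tripeptidyl peptidase whose loss causes a childhood lipofuscinosis, had values of 7.02, 6.97, 6.96 and 7.08 in ursolic acid samples, against 6.80, 6.91, 6.95 and 6.92 in control samples. The groups did not overlap, but the lowest ursolic acid sample lay only just above the highest control sample, and limma gave an unadjusted p of 0.108. Ppt1, which removes palmitate from proteins, was measured by 2 rows that disagreed. Its brighter row had a difference of 0.17 ± 0.11 (SE) and the dimmer row one of −0.09 ± 0.17. Acp5, the tartrate-resistant acid phosphatase of osteoclasts and macrophages, had values of 5.31, 5.06, 5.49 and 5.51 in ursolic acid samples, against 5.62, 5.00, 5.05 and 5.23 in control samples. Its groups overlapped widely and control sample 1 was the highest of all. The difference of 0.12 had a 95% interval of −0.21 to 0.44, and it turned to −0.05 in the samples with concordant labels. Acp2, the lysosomal acid phosphatase, had a difference of 0.04 ± 0.07.

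**Figure D2:**
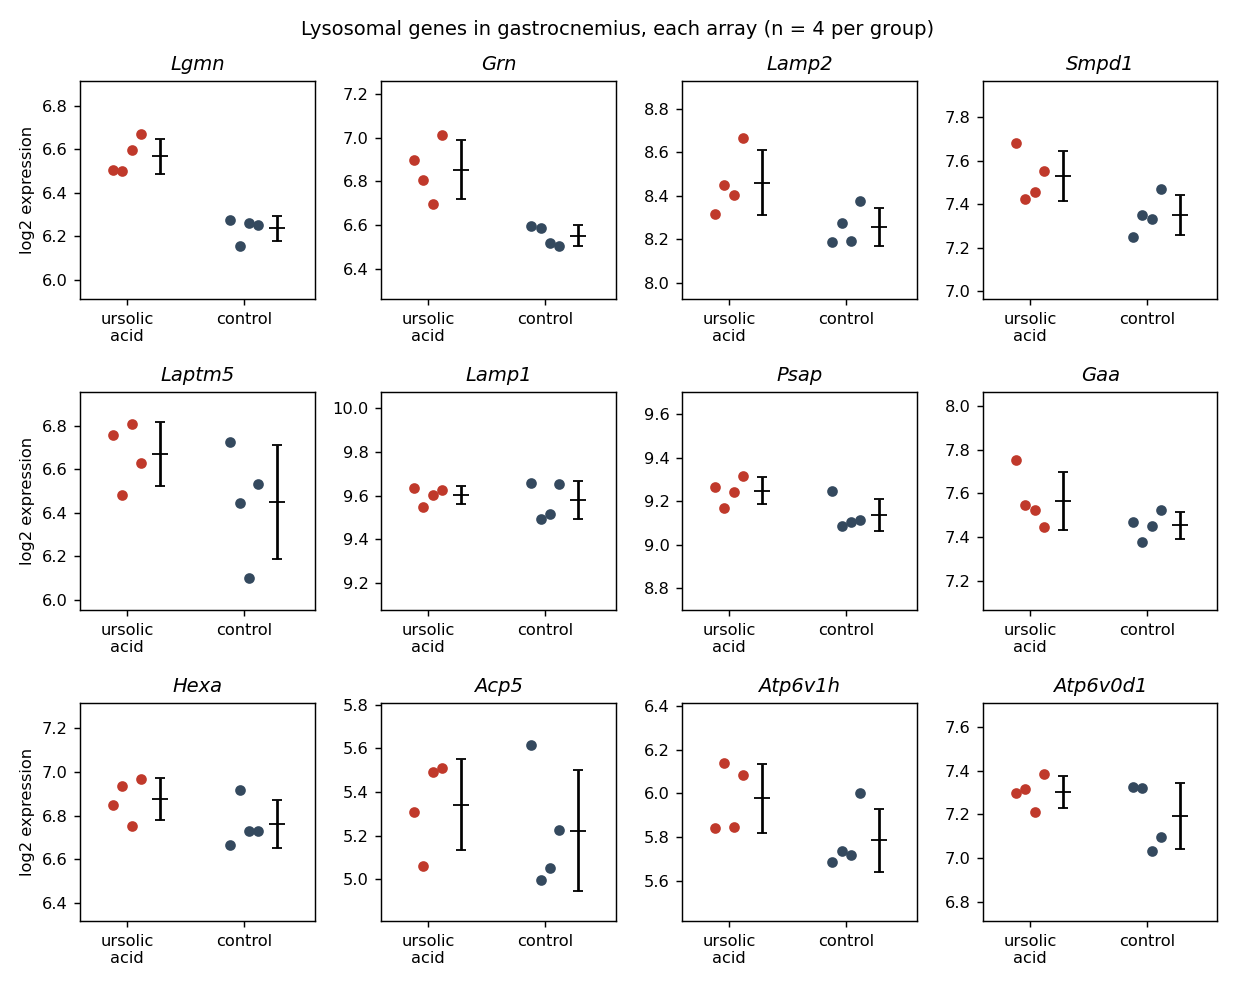
Log2 expression (vertical axis, 1 unit high in every panel) of 12 lysosomal genes in each array, the 4 ursolic acid samples in red to the left of the 4 control samples in dark blue, samples 1 to 4 from left to right, with mean and SD as black bars. The groups are apart in Lgmn and Grn and overlap in the other 10 genes.

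The 4 genes of sphingolipid breakdown were all higher as well, and their median log2 difference was 0.13. Smpd1, the acid sphingomyelinase, had values of 7.68, 7.42, 7.46 and 7.55 in ursolic acid samples, against 7.25, 7.35, 7.33 and 7.47 in control samples. Ursolic acid sample 1 was well above the rest, and control sample 4 reached into the range of the ursolic acid samples. The difference was 0.18 ± 0.08 (SE), with a limma p of 0.0475 and an adjusted p of 0.703. The unadjusted p was below 0.05 in 8 of the 18 settings and reached 0.138. Psap, the precursor of the saposins that help hydrolases reach their lipids, had values of 9.27, 9.17, 9.24 and 9.31 in ursolic acid samples, against 9.25, 9.09, 9.10 and 9.12 in control samples. Control sample 1 was as high as the ursolic acid samples while the other controls lay below all of them. The difference was 0.11 ± 0.07, with an unadjusted p of 0.124. Asah1, the acid ceramidase, and Gm2a, the activator of GM2 ganglioside breakdown, had differences of 0.15 ± 0.14 and 0.08 ± 0.10.

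Of the 11 glycosidases 9 were higher and 2 lower (median log2 difference 0.10). At an unadjusted p of 0.05, 0 were called, against 7.11% of all genes in either direction. Gaa, the acid alpha-glucosidase that frees glucose from glycogen in muscle lysosomes, had values of 7.75, 7.55, 7.52 and 7.44 in ursolic acid samples, against 7.47, 7.37, 7.45 and 7.52 in control samples. The ursolic acid group owed its higher mean mainly to sample 1, and its sample 4 lay below 3 of the controls. The difference was 0.11 ± 0.08 (SE), with a 95% interval of −0.06 to 0.29. Hexa, the alpha chain of beta-hexosaminidase, had values of 6.85, 6.93, 6.75 and 6.97 in ursolic acid samples, against 6.66, 6.92, 6.73 and 6.73 in control samples, a difference of 0.12 ± 0.08. Control sample 2 alone reached into the upper part of the ursolic acid range. Gusb, the beta-glucuronidase of glycosaminoglycan breakdown, had the largest difference of the 11, at 0.13 ± 0.09. Gla (alpha-galactosidase), Glb1 (beta-galactosidase), Man2b1 (an alpha-mannosidase) and Neu1 (a sialidase) had differences of 0.12 ± 0.10, 0.12 ± 0.11, 0.10 ± 0.06 and 0.05 ± 0.10 in that order.

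The lowest differences among hydrolases were those of sulfatases and of Idua. Idua, the alpha-L-iduronidase of heparan and dermatan sulfate, had a log2 difference of −0.09 ± 0.07 (SE), and Naglu, which acts later on heparan sulfate, one of 0.02 ± 0.08. Among the 4 sulfatases 3 were lower. Galns, which removes sulfate from keratan and chondroitin, had the difference farthest below 0, at −0.11 ± 0.09. Arsb, the sulfatase of dermatan sulfate, was lower in both of its rows, by −0.07 ± 0.10 and −0.16 ± 0.12. Arsa, which acts on sulfatide, had −0.03 ± 0.09 and Ids, the iduronate sulfatase, 0.04 ± 0.12. Fuca1, an alpha-fucosidase, and Manba, a beta-mannosidase, stood at 0.00 ± 0.07 and −0.02 ± 0.07. None of these intervals left out 0.

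Among membrane proteins Lamp2, needed for fusion with autophagosomes and for chaperone-mediated autophagy, had log2 values of 8.32, 8.45, 8.41 and 8.67 in ursolic acid samples, against 8.19, 8.28, 8.19 and 8.38 in control samples. The lowest ursolic acid sample, sample 1, lay below control sample 4, so the groups overlapped at that point alone. The difference was 0.20 ± 0.09 (SE), with a limma p of 0.0409 and an adjusted p of 0.690. In 11 of the 18 settings the unadjusted p was below 0.05, and it reached 0.119. Its close relative Lamp1, the most widely used lysosomal marker, had 9.63, 9.55, 9.60 and 9.63 in ursolic acid samples, against 9.66, 9.49, 9.51 and 9.65 in control samples. Those values were interleaved, and the difference was 0.02 ± 0.07 with a 95% interval of −0.12 to 0.17. The gap between the 2 Lamp differences was not tested.

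Scarb2, the receptor that carries beta-glucocerebrosidase to lysosomes, had values of 8.07, 7.93, 7.86 and 7.90 in ursolic acid samples, against 7.71, 7.83, 7.73 and 7.91 in control samples. Only control sample 4 lay within the ursolic acid range, and the difference was 0.15 ± 0.07 (SE) with an unadjusted limma p of 0.0789. Laptm5, a transmembrane protein of blood-derived cells, had 6.76, 6.48, 6.81 and 6.63 in ursolic acid samples, against 6.72, 6.44, 6.10 and 6.53 in control samples. Control sample 3 stood far below all others, and the difference was 0.22 ± 0.13. Without control sample 3 it was 0.10, below the 0.18 of Lamp2. Laptm4a, the broadly expressed relative of Laptm5, had −0.03 ± 0.06. Mcoln1, the calcium channel of lysosomal membranes, had 0.12 ± 0.07, and Cln3, lost in juvenile lipofuscinosis, 0.00 ± 0.08.

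**Figure D3:**
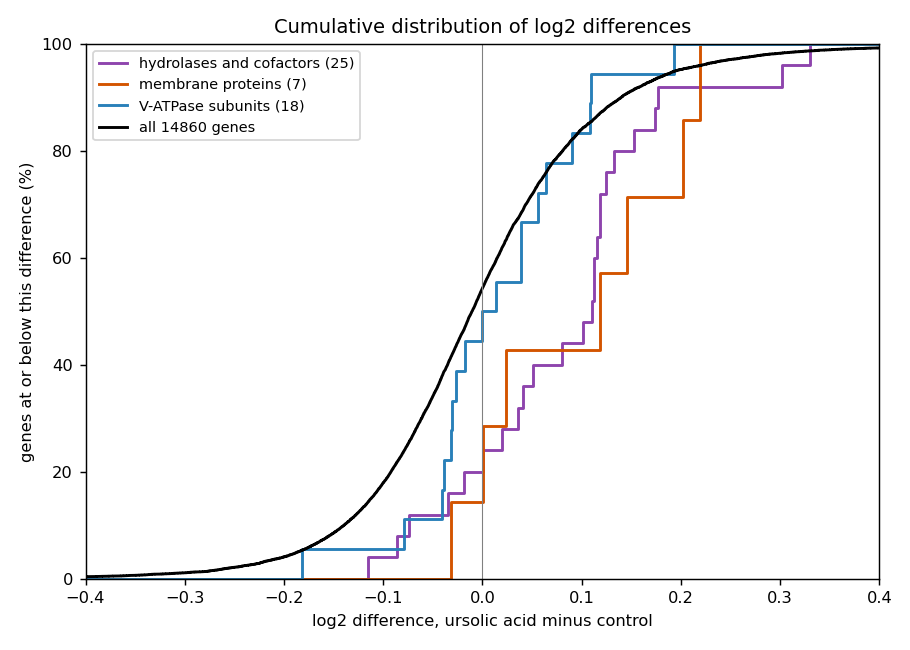
Percentage of genes (vertical axis) with a log2 difference, ursolic acid minus control, at or below the value on the horizontal axis, for hydrolases and cofactors, membrane proteins, V-ATPase subunits and all 14860 genes. Near their medians the curves of hydrolases (median 0.11) and membrane proteins (median 0.12) lie to the right of the others. That of the V-ATPase (median 0.01) crosses 0 near the curve of all genes (median −0.01). At the very top the curve of all genes lies farthest to the right.

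V-ATPase subunits showed no common direction. In the V0 sector 3 of 7 were higher (median log2 difference −0.02), and in the V1 sector 6 of 11 (median 0.01). In 0 of the 18 did the groups separate, and 0 met an unadjusted p of 0.05. Of all genes 4.6% had groups that did not overlap and 7.11% met that p, in either direction. Atp6v1h, a regulatory subunit of V1, had the largest difference, with values of 5.84, 6.14, 5.85 and 6.08 in ursolic acid samples, against 5.69, 5.73, 5.72 and 6.00 in control samples. Control sample 4 lay within the range of the ursolic acid samples, and the other 3 controls lay below all of them. The difference was 0.19 ± 0.10 (SE), with an unadjusted limma p of 0.0803. The unadjusted p was 0.0195 without control sample 4 and 0.00641 in samples with concordant labels, with adjusted p of 0.499 and 0.461.

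The V0 stalk subunit d has 2 isoforms. Atp6v0d1, the widespread one, had log2 values of 7.30, 7.32, 7.21 and 7.38 in ursolic acid samples, against 7.32, 7.32, 7.03 and 7.10 in control samples, a difference of 0.11 ± 0.08 (SE). Its controls fell into a higher pair, samples 1 and 2, and a lower pair, samples 3 and 4. Without control sample 3 the difference was 0.06, and in samples with concordant labels it was 0.17. Atp6v0d2, the isoform known from osteoclasts and macrophages, had 4.38, 4.58, 4.35 and 4.48 in ursolic acid samples, against 4.40, 4.36, 4.30 and 4.27 in control samples, a difference of 0.11 ± 0.07. These values lay in the lower part of the range of each array, whose medians were 5.55 to 5.61, and no detection call is given per row.

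Atp6v1b2, the widespread form of the nucleotide-binding B subunit, had log2 values of 7.59, 7.24, 7.40 and 7.59 in ursolic acid samples, against 7.38, 7.33, 7.40 and 7.34 in control samples. Ursolic acid sample 2 was the lowest of all 8, and the difference was 0.09 ± 0.09 (SE). Its kidney counterpart Atp6v1b1 had a difference of 0.04 ± 0.07, and the catalytic subunit Atp6v1a one of −0.08 ± 0.08. Atp6v1e2, the E subunit isoform known from testis, lay farthest below 0, at −0.18 ± 0.09, while the widespread Atp6v1e1 had 0.04 ± 0.07. The row of Atp6v1e2 was dim, with a mean log2 value of 4.26, below the 4.39 of Atp6v0d2. The remaining V1 subunits, Atp6v1c1, Atp6v1c2, Atp6v1d, Atp6v1g2 and Atp6v1g3, ran from −0.04 to 0.06, and the remaining V0 subunits, Atp6v0a1, Atp6v0a2, Atp6v0b, Atp6v0e and Atp6v0e2, also from −0.04 to 0.06.

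Promoters were read because many lysosomal genes are known targets of TFEB and its relatives, factors that bind the palindrome CACGTG and favour the 7-letter form TCACGTG that contains it. Each motif was searched on both strands in the 250 bases before the transcription starts listed by RefSeq (build GRCm38.p6), where 43 of the 50 members had an entry. CACGTG was found before 11 of these 43 genes (25.6%), against 6.86% of the 27025 genes in the whole promoter table and 18.5% (12 of 65) of the further lysosomal genes described below. TCACGTG, on either strand, was present before the same number, 11 of 43, against 3.58% of genes in that table and again 12 of 65 further lysosomal genes. The whole promoter table is not limited to genes measured on the arrays, and no share over measured genes alone was taken. By promoter entry the shares of CACGTG were 22.4% of 49 and 6.02% of 32851. It was found before 6 of 23 hydrolases and cofactors, 3 of 7 membrane proteins and 2 of 13 V-ATPase subunits. The 6 members with the smallest p that hold the palindrome are printed 5′ to 3′ on the strand of the gene, with CACGTG in capitals.
Lgmn (chr12:102439114-102439163, minus strand): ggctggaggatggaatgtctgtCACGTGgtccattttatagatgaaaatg
Mcoln1 (chr8:3500452-3500501, plus strand): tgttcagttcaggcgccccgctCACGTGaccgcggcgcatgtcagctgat
Gaa (chr11:119267801-119267850, plus strand): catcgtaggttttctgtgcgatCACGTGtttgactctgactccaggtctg
Gla (chrX:134601172-134601221, minus strand): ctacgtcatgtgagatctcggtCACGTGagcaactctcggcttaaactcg
Glb1 (chr9:114401008-114401057, plus strand): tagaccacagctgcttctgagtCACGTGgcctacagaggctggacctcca
Atp6v1a (chr16:44139363-44139412, minus strand): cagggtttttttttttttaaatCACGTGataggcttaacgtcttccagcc

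The printed copy begins 49 bases before the start of Lgmn, 45 before that of Mcoln1, 48 before that of Glb1, 131 before that of Atp6v1a, 140 before that of Gaa and 194 before that of Gla. In all 6 printed stretches it follows a t, which completes TCACGTG. The other 5 members with the palindrome were Arsa, Lamp1, Naglu, Atp6v0b and Cln3, and Lamp1 held 4 copies. Mcoln1, Gla, Atp6v0b and Cln3 held 2 copies each. Lgmn and Cln3 each have a further promoter entry, without the palindrome. The 11 genes with it had a median log2 difference of 0.02, with 8 higher, and the 32 genes without it a median of 0.05, with 21 higher, a gap that was not tested. The regulators themselves had small differences, at 0.07 ± 0.06 (SE) for Tfeb, 0.03 ± 0.09 for Tfe3 and −0.03 ± 0.08 for Mitf, and the sign of Tfe3 and Mitf turned under other settings.

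Of 99 further lysosomal genes listed for comparison, 77 had a row of their own. They divided evenly, 38 higher and 39 lower, and their median log2 difference was −0.00. By limma 0 passed an adjusted p of 0.05 over all rows, and 7 (9.09%) met an unadjusted p of 0.05, all of them higher. Of all genes 4.13% were higher and 2.98% lower at that p. Above the median level, where 60 of the 77 lay, 5.91% of genes were higher at it. Lipa, the acid lipase that splits cholesterol esters and triglycerides, had the largest difference, with values of 6.61, 6.54, 6.61 and 6.83 in ursolic acid samples, against 5.79, 6.30, 6.08 and 6.21 in control samples. The groups did not overlap, and control sample 1 was the lowest. The difference was 0.55 ± 0.11 (SE), with an adjusted p of 0.188. Npc1, the membrane protein that exports the cholesterol so released, had 8.16, 8.14, 8.03 and 8.20 in ursolic acid samples, against 7.91, 7.92, 7.85 and 7.97 in control samples, a difference of 0.22 ± 0.06 with an adjusted p of 0.432. Here again the groups did not overlap, while Npc2, the soluble partner of Npc1, had 0.16 ± 0.08 with groups that did.

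The other 5 were Cd68 (a macrophage lysosomal glycoprotein, 0.34 ± 0.10 SE), Prcp (a prolyl carboxypeptidase, 0.34 ± 0.10), Galc (galactosylceramidase, 0.22 ± 0.09), Scpep1 (a serine carboxypeptidase, 0.21 ± 0.10) and Gga2 (a sorting adaptor, 0.18 ± 0.08). The hydrolases of this wider list had a median log2 difference of 0.01 over 22 genes, where the 25 named hydrolases and cofactors had 0.11. Membrane transporters had −0.01 over 28 genes, sorting genes −0.06 over 10, and V-ATPase accessory genes 0.09 over 7. Tcirg1, the V0 subunit of osteoclasts that does not carry the Atp6v stem, had −0.01 ± 0.08 and changed sign with the scaling of the arrays.

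Markers of macrophages moved in the same direction as the hydrolases. Of 14 measured macrophage markers 13 were higher with ursolic acid, and 10 were higher at an unadjusted p of 0.05. Of all genes 45.6% were higher, and 4.13% were higher at that p. The list's median log2 difference was 0.30. Tyrobp, Mrc1, Cd163 and Adgre1 had differences of 0.69, 0.65, 0.42 and 0.30, and Cx3cr1 was the single lower marker at −0.13. The summed level of the list, taken as log2, was 9.98 to 10.27 in ursolic acid samples and 9.66 to 9.82 in control samples. These values are not calls of presence, so no marker could be read as absent, and the part of macrophage RNA in the lysosomal differences was not tested. In RNA of whole muscle, more cells of a type and more RNA per cell cannot be told apart, nor can fewer cells and less RNA per cell.

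All 8 of 8 fibroblast markers were higher too, by a median of 0.16 on the log2 scale. Only 2 of them, Lum and Postn, were higher at an unadjusted limma p of 0.05, against 4.13% of all genes. In 1, Lum, the groups did not overlap, against 2.75% of all genes. The log2 summed level of the list was 11.38 to 11.70 in ursolic acid samples and 11.30 to 11.45 in control samples. The part of fibroblast RNA was not tested either. Markers of muscle fibres, with mean values of 10.04 for Mb to 12.48 for Tnnt3, had a median difference of 0.00. Osteoclast markers, with which Acp5 and Atp6v0d2 are often grouped, had a median of −0.05, 1 of 7 being higher. Most of these rows were dim, with 2 of 7 above the median level. Adipocyte and endothelial markers had medians of 0.02 and −0.08.

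A score per array, the mean over a list of how far each gene's log2 value lay from its own average of all 8 arrays, showed how the samples lined up. For hydrolases and cofactors it was 0.05, 0.00, 0.01 and 0.11 in ursolic acid samples 1 to 4, against −0.04, −0.07, −0.04 and −0.01 in control samples 1 to 4. For membrane proteins it was 0.06, 0.00, 0.06 and 0.07 in ursolic acid samples, against −0.02, −0.02, −0.13 and −0.03 in control samples. In both lists all ursolic acid samples lay above all controls, by a narrow gap, and sample 2 was the lowest ursolic acid sample. V-ATPase scores overlapped, at 0.02, −0.03, 0.01 and 0.02 with ursolic acid and −0.00, 0.01, −0.06 and 0.02 in control. For macrophage markers the scores were 0.10, 0.06, 0.20 and 0.26 in ursolic acid samples and −0.11, −0.18, −0.22 and −0.10 in control samples. Ursolic acid samples 4 and 2 were the highest and the lowest of their group on both the hydrolase and the macrophage score, while samples 1 and 3 stood in opposite order on the 2 scores. Control sample 4 was the highest control on both, but the lowest was sample 2 for hydrolases and sample 3 for macrophage markers. Fibroblast markers scored 0.17, −0.18, 0.18 and 0.29 in ursolic acid samples and −0.10, −0.18, −0.12 and −0.05 in control samples. These groups overlapped. Ursolic acid samples 4 and 2 were again the highest and the lowest, and the controls stood in the same order as on the hydrolase score. How far these scores go together was not tested. The median of the hydrolases depended on control sample 2, without which it was 0.06.

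**Figure D4:**
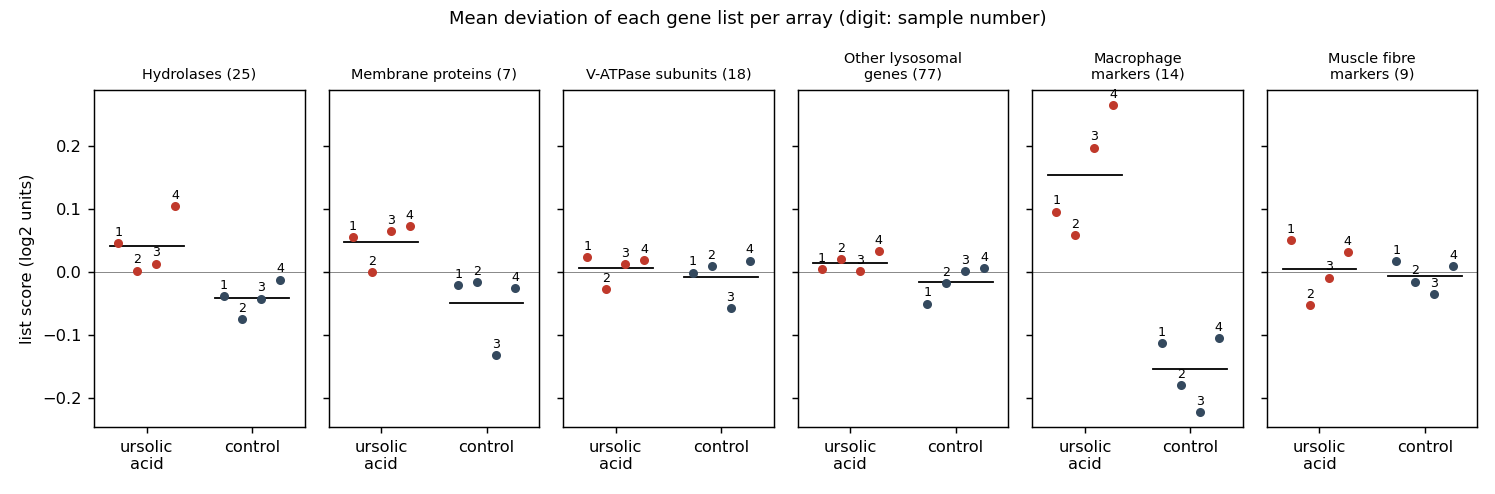
List score per array in log2 units (vertical axis), ursolic acid samples in red to the left of control samples in dark blue, with the sample number above each point and the group mean as a line. Hydrolase, membrane protein and macrophage scores do not overlap between the groups, while V-ATPase, other lysosomal and muscle fibre scores do.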

How the data were processed

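The deposited values are log2 expression values of 8 arrays, made by the authors with RMA on build mm9, per the submitters' processing notes. The software version, summary level and row filters were not given in the sources available, and base 2 was inferred from the range of the values. Each of the 16755 rows was fitted without further normalization with limma 3.58.1 in R 4.3.3 (lmFit, eBayes, no trend or covariates). Tests were two-sided, and p-values were adjusted across the whole table by Benjamini-Hochberg. Intervals are at 95%. Of these rows, 14996 carry 1 symbol in the platform annotation, 1019 several and 740 none, and 14941 matched RefSeq by gene number. Members, gene lists and tests were chosen with earlier results of these data known. Values per array are given for members at an unadjusted p of 0.05, for 14 preset members with a row, and for Tpp1, chosen after its values were seen. Lipa and Npc1 were preset among the further genes. The fit was tested on simulated data with independent noise and added differences larger than that of any member. That test therefore does not show how well differences as small as those of the members are found. Array depth is not defined, and the number of arrays limits precision. Whether mice entered more than 1 pool is not stated, so p-values measure only the spread between these samples.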

Additional observations from a re-analysis of the deposited data

Results flagged for a closer look

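Of 112 sets of 4 samples (each member and each of 6 list scores, in each group), 5 held 1 sample that stood apart, and about 1 set in 20 would by chance. In brackets is the share of the set's range taken up by the gap beside that sample. The membrane protein score of control sample 3 was low, at −0.13 where the other controls had −0.03 to −0.02 (0.910). Atp6v0e2 was high in control sample 1, at a log2 value of 6.80 where the others had 6.47 to 6.50 (0.892). Naglu was low in control sample 3, at 5.50 where the others had 5.72 to 5.75 (0.889). Atp6v1h was high in control sample 4, at 6.00 where the others had 5.69 to 5.73 (0.846). Atp6v0a1 was low in ursolic acid sample 3, at 7.50 where the others had 7.67 to 7.70 (0.839).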

How the results depend on the processing

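In each alternative run, limma fits passed 0 of the tested members and 0 of the tested further lysosomal genes at an adjusted p of 0.05. In the unaltered fit 0 of both passed at 0.10. The tested genes were 50 members and 77 further genes, but 36 and 60 where rows under the median level were left out. Another run took ordinary t-tests from the fit. The count of members higher at an unadjusted p of 0.05, 4 as reported, was 2 under quantile normalization (4.02% of all genes) and 2 to 8 with single samples left out (3.2% to 4.74%). Members lower at that p numbered 1 in samples with concordant labels (5.94% of all genes) and 0 to 1 with single samples left out (2.26% to 3.97%). Grouping by the free-text description gave 2 higher and 2 lower members (5.15% and 7.48% of all genes), without Lgmn or Grn. Same-numbered samples deviated together (r above 0.1) in 2 of 4 pairs, so the numbers were not taken to pair them, and the replicate block gave 5 higher and 0 lower members (4.97% and 3.8% of all genes). Further lysosomal genes lower at an unadjusted p of 0.05 numbered 0 of 77 as reported (2.98% of all genes). They numbered 1 with the replicate block (3.8%), 5 with concordant labels (5.94%) and 5 by description (7.48%). With single samples left out they numbered 0 to 2 (2.26% to 3.97%). The count was 1 with array weights, where the share of all genes was not taken. The median of all members was 0.086 once dim rows, those under the median level, were dropped. That of hydrolases was 0.070 with concordant labels and 0.064 to 0.11 with single samples left out, that of V-ATPase subunits −0.0060 to 0.042 with single samples left out, and that of further genes 0.031 with concordant labels and −0.0069 to 0.020 with single samples left out. Of 483 values of 27 genes under alternatives, 471 kept their direction. The 12 that turned were near 0: Acp5 (−0.048) and Tfe3 (−0.065) with concordant labels, Tcirg1 with median centring (0.011) and quantile normalization (0.0025), and, over single samples left out, Lamp1 (−0.0050 to 0.050), Tfe3 (−0.026 to 0.098), Mitf (−0.088 to 0.011) and Tcirg1 (−0.062 to 0.028). The cause of these shifts was not tested.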
